A study of Homo sapiens with 18 samples.

Results

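The levels of 9 classical target genes of the tumour suppressor p53 were followed through oncogenic transformation and through inhibition of the transcription factor TFIIH. The 9 genes were taken by name, and their rows were found by gene ID among 23604 genes listed in the RNA-Seq files: *CDKN1A*, *GADD45A*, *BTG2*, *MDM2*, *MDM4*, *PPM1D*, *SESN1*, *TP53I3* and *FAS*. The cells were MCF10A-ErSrc, a non-tumoral human breast epithelial line that carries the v-Src oncoprotein fused to the ligand-binding part of the oestrogen receptor (ER). NT cells received no tamoxifen, whereas TAM cells were transformed by switching v-Src on with 2 µM tamoxifen, and each was then given DMSO or 0.125 µM triptolide (TPL), which binds the XPB subunit of TFIIH, for 4 h. All 4 groups carry the v-Src fusion, and all come from 1 line. RNA-Seq of poly-A RNA gave 2 libraries, described as independent biological replicates, for each of NT, NT + TPL, TAM and TAM + TPL. RNAPII ChIP-Seq gave 1 list of peaks for each of the same conditions.

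p53 is a transcription factor that is kept low in unstressed cells by MDM2, a ubiquitin ligase which is itself a p53 target, and by its relative MDM4. Stress signals release p53, and its targets then halt the cell cycle (*CDKN1A*, which encodes the CDK inhibitor p21), limit oxidative damage and, when stress persists, favour apoptosis. Several of the messengers in this loop, *MDM2* among them, are known to be short-lived. MCF10A cells lack the *CDKN2A* locus, whose ARF product restrains MDM2.

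*CDKN1A* RNA rose with TPL in both NT and TAM cells, by 2.96-fold and 2.03-fold. *PPM1D* TPL libraries also lay above the DMSO libraries, by differences that did not pass the test in the main edgeR fit. *GADD45A* fell with TPL in NT cells and was lower in TAM than in NT cells. The TPL libraries of *BTG2* and *TP53I3* lay on opposite sides of their controls in NT and TAM cells. For neither gene did the difference between the TPL effects pass the test in the main edgeR fit. *MDM2* showed no difference that passed the test. *FAS* fell in both cell states once its reads, which the quantification had divided among 4 entries, were added together.

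The p53 response element consists of a pair of 10-base half-sites, each with a 4-base core. The sequence within 3000 bases of the main transcription start site (TSS) of each member was searched on GRCh37 (hg19) for that element with no spacer, both cores intact and at most 2 mismatches in the other bases. The pattern reads the same on both strands, so 1 search covers both. Such an element lay at 4 of the 9 members, against 2.94% of the windows of 14874 genes searched the same way. The members are known p53 targets, so this share is a description. The 4 sites are shown because they mark which members hold a nearby copy of the element, with the cores in capitals, 5′ to 3′ on the strand of the gene, which is the plus strand for all 4.
CDKN1A, chr6:36644226-36644245, at −2265 to −2246 bases from the TSS: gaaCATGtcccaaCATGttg
BTG2, chr1:203272770-203272789, at −1877 to −1858 bases from the TSS: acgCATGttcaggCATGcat
GADD45A, chr1:68152458-68152477, at 1574 to 1593 bases from the TSS, in intron 3: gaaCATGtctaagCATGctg
FAS, chr10:90751066-90751085, at 652 to 671 bases from the TSS, in intron 1: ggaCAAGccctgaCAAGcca

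The *GADD45A* site had 1 mismatch outside the cores and the others had 2. No site of this form was found in the windows of *MDM2*, *MDM4*, *PPM1D*, *SESN1* and *TP53I3*, which says only that these letters are not there. Binding of p53 was not measured in this study.

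Depth was even, with 7461309 to 8349448 expected counts per library. Keratins of basal breast epithelium were high, with *KRT5* between 434 and 6250 FPKM, while *PGR*, *COL3A1*, *VWF* and *CDKN2A* stayed at or below 0.42 FPKM in all libraries. The summed level of 8 basal markers differed between groups, from 17110 to 18836 FPKM in NT and 10826 to 13824 in NT + TPL to 7531 to 7854 in TAM and 3891 to 4271 in TAM + TPL. *KRT5* and *KRT17* followed this sum, but not every marker did. *KRT6A* was at 4101 and 3969 FPKM in NT and at 4062 and 4623 in TAM. *ITGB4* was at 366 and 393 in NT and at 724 and 533 in NT + TPL. Of 3 immune markers, the lysosomal gene *CD68* moved against the basal sum, from 47.1 FPKM at the lowest to 473 at the highest. *CD3E* was at or below 0.17. *PTPRC* ran from 0.16 to 2.14 and was higher in the TPL libraries of both cell states. Summed fibroblast markers stayed at or below 6.23 FPKM and endothelial markers at or below 1.73. *ESR1* reads, at 36.9 to 248 FPKM, cannot be told apart from those of the ER part of the fusion. The part of these differences in the results was not tested.

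Values below are FPKM (fragments scaled for transcript length and for the mapped reads of the library), in the order replicate 1, replicate 2. Fold changes are log2 values ± SE, tested by edgeR's quasi-likelihood test on the counts, with Benjamini-Hochberg adjustment over 16948 genes. The SE was derived as the size of the log2 fold change divided by the square root of that test's F. Intervals use this SE with a t quantile, so both are approximate. A call in the strict sense combines a log2 fold change of 1.2 or more in size with an adjusted p of 0.001 or less, the thresholds of the study. A gene is said to have risen or fallen where its adjusted p was at most 0.05. These values are relative to the RNA of the same library, and in bulk samples fewer cells with a messenger cannot be told apart from less of it per cell.

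The first member acts in cell-cycle arrest. *CDKN1A* (gene ID 1026, chr6:36646491-36655109, GRCh37, plus strand) stood at 91.1 and 93.1 FPKM in NT and at 315 and 234 in NT + TPL. In TAM cells it stood at 77.6 and 78.8, and with TPL at 181 and 143. All 4 TPL libraries lay above all 4 DMSO libraries. The log2 fold change with TPL was 1.56 ± 0.17 in NT cells (95% confidence interval 1.15 to 1.98, adjusted p = 0.00105) and 1.02 ± 0.17 in TAM cells (0.61 to 1.43, adjusted p = 0.0056). The NT value narrowly missed the strict threshold, and passed it in 6 of the alternatives, among them DESeq2 (adjusted p = 3.52e-17) and limma on log2(FPKM + 1) (adjusted p = 0.000873). Over the alternatives its adjusted p ran from 3.52e-17 to 0.0118. The rise in TAM cells was smaller by 0.55 ± 0.24, and this difference did not pass the test (adjusted p = 0.483).

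*GADD45A* (gene ID 1647, chr1:68150884-68154017, plus strand) encodes a small protein that binds PCNA and CDK1 and acts in arrest and repair. It was present at 35.2 and 37.8 FPKM in NT, and at 19.9 and 17.3 in NT + TPL. TAM libraries held 14.6 and 19.3, and TAM + TPL libraries 19.02 and 21.4. The NT libraries stood apart from the other 6, which lay within 14.6 to 21.4 FPKM. *GADD45A* fell with TPL in NT cells (−0.97 ± 0.18, adjusted p = 0.0076) and was lower in TAM than in NT cells (−1.09 ± 0.18, adjusted p = 0.0159), 2 comparisons that share the NT libraries. With TPL in TAM cells the log2 fold change was 0.21 ± 0.18 (−0.22 to 0.64, adjusted p = 0.406). The TPL effects in TAM and NT cells differed by 1.18 ± 0.26 (0.56 to 1.79), which did not pass the test in edgeR (adjusted p = 0.201) and passed in DESeq2 (adjusted p = 0.00381). Over the alternatives that adjusted p ran up to 0.525. The adjusted p of the TAM against NT difference ran up to 0.101 over the alternatives. It was above 0.05 without either NT library (0.0734 and 0.101) and without TAM replicate 1 (0.1).

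*BTG2* (gene ID 7832, chr1:203274647-203278730, plus strand) encodes an antiproliferative adaptor of the CCR4-NOT deadenylase. It was measured at 11.7 FPKM in both NT libraries, and at 10.2 and 8.98 in NT + TPL. TAM cells had 8.36 and 7.32, with TPL 11.2 and 11.4. The TPL libraries thus lay below their controls in NT cells and above them in TAM cells. The log2 fold change was −0.29 ± 0.15 in NT cells (−0.64 to 0.05, adjusted p = 0.154), whereas *BTG2* rose in TAM cells (0.48 ± 0.15, adjusted p = 0.0433). The adjusted p of that rise ran from 0.011 to 0.218, and it was above 0.05 without any 1 of the NT, TAM or TAM + TPL libraries, under *GAPDH* scaling (0.206) and with no filter on low counts (0.088). The difference between the TPL effects was 0.78 ± 0.21 (adjusted p = 0.274).

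**Figure D1:**
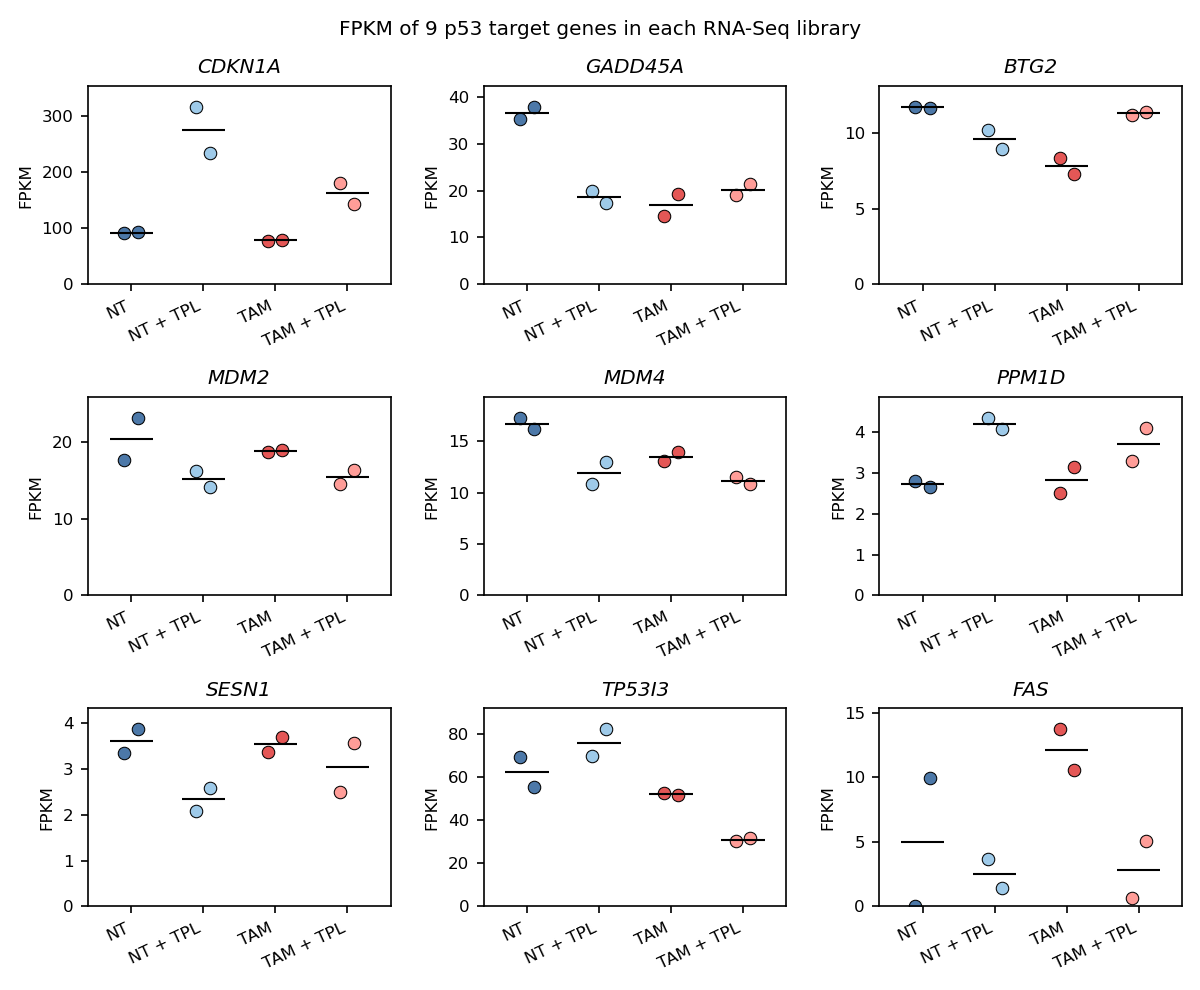
FPKM (y axis, from 0) of the 9 p53 target genes in the 8 RNA-Seq libraries; each point is 1 library and each bar the mean of 2. The TPL libraries of CDKN1A lie above their controls in both cell states, and those of BTG2 and TP53I3 lie on opposite sides of their controls in NT and TAM cells.

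The next members act in the feedback that restrains p53. *MDM2* (gene ID 4193, chr12:69201957-69239324, plus strand) was at 17.6 and 23.1 FPKM in NT and 16.1 and 14.2 in NT + TPL. TAM cells had 18.7 and 18.9, with TPL 14.4 and 16.3. Every TPL library was below every DMSO library, by log2 fold changes of −0.45 ± 0.17 in NT (−0.85 to −0.04, adjusted p = 0.0794) and −0.33 ± 0.17 in TAM cells (−0.73 to 0.08, adjusted p = 0.179). These intervals still allow a fall of up to 0.85 or a rise of up to 0.08 on the log2 scale. DESeq2 gave an adjusted p of 0.0348 for the NT difference.

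*MDM4* (gene ID 4194, chr1:204485534-204527248, plus strand), the relative of *MDM2* that masks the activation domain of p53, was at 17.2 and 16.1 FPKM in NT. With TPL these cells held 10.9 and 12.96. TAM cells held 13.1 and 13.9, against 11.5 and 10.9 once TPL was added. *MDM4* fell with TPL in NT cells (−0.51 ± 0.14, adjusted p = 0.0303), and the difference in TAM cells was −0.29 ± 0.14 (−0.63 to 0.05, adjusted p = 0.162). The NT fall had adjusted p values between 0.00214 and 0.156 over the alternatives, and leaving out any library except NT + TPL replicate 2 took it above 0.05, as did upper quartile scaling.

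*PPM1D* (gene ID 8493, chr17:58677554-58743641, plus strand) encodes the phosphatase WIP1, which reverses the phosphorylation of p53 and its kinases. NT libraries held 2.8 and 2.66 FPKM, against 4.34 and 4.08 with TPL. TAM libraries held 2.52 and 3.15, against 3.3 and 4.11 with TPL. As with *CDKN1A*, no TPL library overlapped a DMSO library. The log2 fold changes were 0.61 ± 0.21 in NT (0.13 to 1.10, adjusted p = 0.0538) and 0.34 ± 0.20 in TAM cells (−0.14 to 0.83, adjusted p = 0.232). Neither passed the test in the main edgeR fit. For NT cells DESeq2 gave an adjusted p of 0.0339. In edgeR it was 0.0191 under upper quartile scaling, 0.0325 with at least 10 counts in every library and 0.0436 with entries summed. Over the alternatives it ran up to 0.486, under *GAPDH* scaling.

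*SESN1* (gene ID 27244, chr6:109305512-109416049, minus strand), a sestrin that lowers mTORC1 activity, had 3.36 and 3.87 FPKM in NT and 2.09 and 2.59 in NT + TPL. TAM cells had 3.37 and 3.71, with TPL 2.49 and 3.58, and these groups overlapped. The log2 fold changes were −0.62 ± 0.28 (−1.29 to 0.04, adjusted p = 0.123) and −0.27 ± 0.28 (−0.93 to 0.39, adjusted p = 0.488). With 49 to 95 counts per library, *SESN1* was the member with the fewest reads over the 8 libraries.

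Of the targets that act in cell death, *TP53I3* (gene ID 9540, chr2:24300303-24307704, minus strand) encodes PIG3, a quinone oxidoreductase-like protein linked to reactive oxygen species. It was at 69.7 and 55.5 FPKM in NT and 70.0 and 82.4 in NT + TPL, whereas TAM cells had 52.8 and 51.7, with TPL 30.4 and 31.6. *TP53I3* fell with TPL in TAM cells (−0.85 ± 0.18, adjusted p = 0.0114). In NT cells the log2 fold change was 0.26 ± 0.17 (−0.15 to 0.66, adjusted p = 0.272), and it was −0.08 when libraries were scaled to equal *GAPDH*. The effects differed by −1.11 ± 0.24 (−1.69 to −0.53), which did not pass the test in edgeR (adjusted p = 0.201) and passed in DESeq2 (adjusted p = 0.00149). Over the alternatives that adjusted p ran up to 0.562. Leaving out any 1 of the TAM or TAM + TPL libraries raised the adjusted p of the TAM fall to between 0.0545 and 0.0806.

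*FAS* (gene ID 355, chr10:90750414-90775542, plus strand) encodes a death receptor. Its gene ID row read 0 and 9.96 FPKM in NT cells, and 3.67 and 1.41 when TPL was added. In TAM cells it read 13.7 and 10.6, and 0.65 and 5.03 when TPL was added. The NT libraries lay on either side of the NT + TPL libraries, and the row gave −1.01 ± 1.57 in NT cells (adjusted p = 0.641) and −2.14 ± 1.58 in TAM cells (adjusted p = 0.327). The reads of NT replicate 1 were not missing. The files list 3 further *FAS* entries by RefSeq accession, and 267 expected counts of that library stood in one of them and 60.0 in another. The share of *FAS* counts in the gene ID row ran from 0% in NT replicate 1 to 100% in TAM + TPL replicate 2.

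Added over the 4 entries, *FAS* had 327 and 341 expected counts in NT cells, against 132 and 100 with TPL. In TAM cells it had 496 and 521, against 132 and 164 with TPL. The 4 TPL libraries then lay between 100 and 164 counts and the 4 DMSO libraries between 327 and 521. With the entries of each symbol summed before the fit, the log2 fold change was −1.45 ± 0.19 in NT cells (−1.86 to −1.04, adjusted p = 0.000118) and −1.74 ± 0.19 in TAM cells (−2.15 to −1.33, adjusted p = 3.53e-05), and both passed the strict thresholds. The TPL effects differed by −0.29 ± 0.26 (adjusted p = 0.689). With 1 library left out, the summed value ran from −1.61 to −1.29 in NT cells and from −1.83 to −1.66 in TAM cells. It missed the strict threshold without NT replicate 2 (adjusted p = 0.00146), TAM + TPL replicate 1 (adjusted p = 0.00183) and TAM + TPL replicate 2 (adjusted p = 0.00117). The summed fit called 12.7% of 15753 genes in NT cells and 11.2% in TAM cells, so a strict call was more common in it than in the fit over single entries. None of the other 8 members had a second entry.

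**Figure D2:**
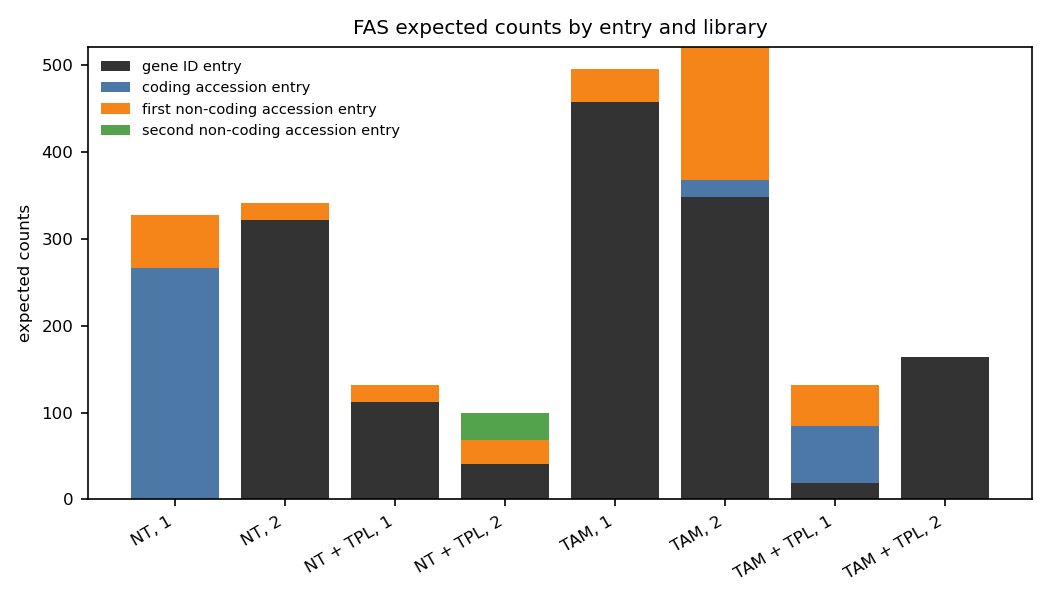
Expected counts of FAS (y axis, from 0) in the 8 RNA-Seq libraries, labelled by group and replicate and stacked by the 4 entries that hold its reads. The summed bars lie between 100 and 164 with TPL and between 327 and 521 without it, while the gene ID entry alone runs from 0 to 458.

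In the fit over single entries, 0 of 9 members were called by the strict rule with TPL in NT cells, where 3.93% of all genes were, and 0 of 9 in TAM cells, where 2.88% were. At an unadjusted edgeR p under 0.05 there were 5 and 3, beside 47.8% and 45.1% of all genes. By the strict rule DESeq2 called 1 and 0 members, beside 2554 and 2278 of 16948 genes. Limma on log2(FPKM + 1) called 1 and 0, beside 870 and 676. At an adjusted p of 0.05, 3 members passed in NT cells (1 higher, 2 lower) against 37% of all genes (17.2% higher, 19.8% lower), and 3 passed in TAM cells (2 higher, 1 lower) against 33.0% (14.3% higher, 18.6% lower). These shares are near the background and say nothing particular of the members. The NT + TPL and NT libraries did not overlap for 8 of 9 members (3 higher, 5 lower), against 69.1% of all genes (36.4% higher, 32.7% lower). The TAM + TPL and TAM libraries did not for 7 of 9 (3 higher, 4 lower), against 74.7% (40.0% higher, 34.7% lower). The median log2 fold change of the members was −0.45 in NT and −0.27 in TAM cells, beside 0.09 and 0.05 over all genes.

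Between TAM and NT cells without TPL, 1 member passed an adjusted p of 0.05 in edgeR. TAM cells also received tamoxifen, so its own effect cannot be told apart from that of v-Src. *GADD45A* was lower in TAM than in NT cells, and the remaining 8 gave log2 fold changes between −0.56 (*BTG2*, adjusted p = 0.0753) and 1.3 (the divided *FAS* row, adjusted p = 0.715). At an adjusted p of 0.05, 6.84% of all genes passed in this comparison and 3.39% were lower. The TAM and NT libraries did not overlap for 6 of 9 members (1 higher, 5 lower), against 52.7% of all genes (24% higher, 28.7% lower). *FAS* summed over its entries was 0.58 ± 0.18 higher in TAM cells (adjusted p = 0.062). By the strict rule 0 of 9 members were called in edgeR and in DESeq2, where 0.655% of all genes were called in edgeR and 745 of 16948 in DESeq2. At an unadjusted edgeR p under 0.05 there were 2, beside 19.9% of all genes. For the difference between the TPL effects 0 of 9 passed an adjusted p of 0.05 in edgeR, where 0.165% of all genes did. *GADD45A*, *TP53I3* and *BTG2* were the 3 members with an unadjusted edgeR p under 0.05 there, beside 10.6% of all genes. DESeq2 passed *GADD45A* and *TP53I3* at an adjusted p of 0.05, beside 530 of 16948 genes.

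**Figure D3:**
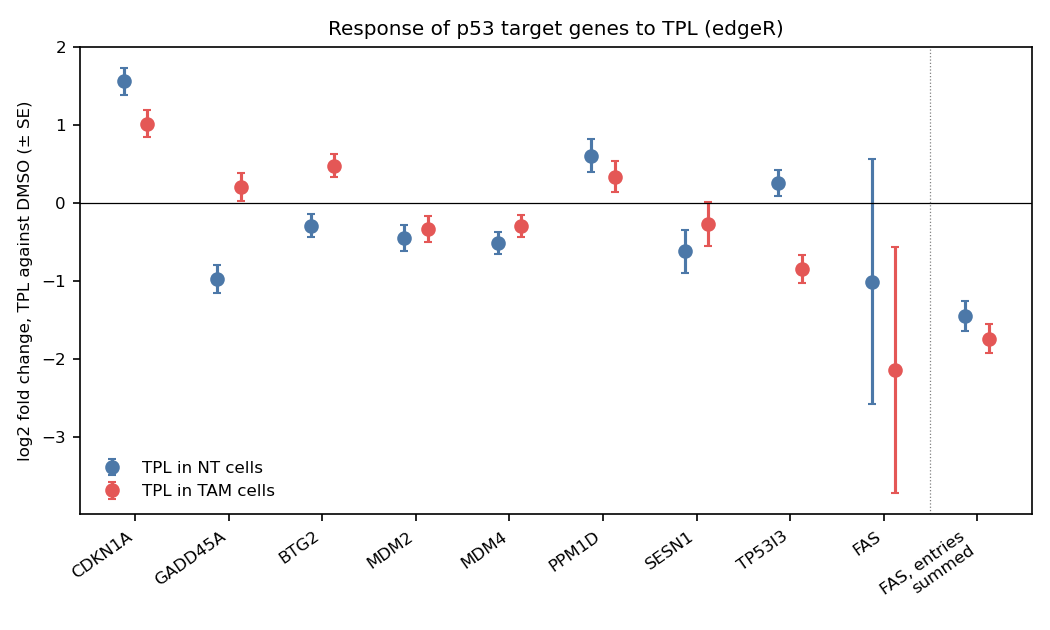
Log2 fold change with TPL against DMSO (y axis) of each member in NT (blue) and TAM cells (red); points are edgeR estimates and bars ± 1 SE. The last pair gives FAS with its 4 entries summed, −1.45 and −1.74, beside the row by gene ID, whose SE is 1.57 and 1.58.

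In level per length, the NT libraries ranked *CDKN1A* first (92.1 ± 1.44 FPKM, SD, n = 2), followed by *TP53I3* (62.6 ± 10.1), *GADD45A* (36.5 ± 1.8), *MDM2* (20.3 ± 3.85), *MDM4* (16.7 ± 0.771), *BTG2* (11.7 ± 0.0141), *SESN1* (3.62 ± 0.361) and *PPM1D* (2.73 ± 0.099). No 2 neighbours in this order of 8 members overlapped in their libraries. *FAS* was left out of it because its gene ID row read 0 and 9.96 FPKM in NT, across *SESN1* and *PPM1D*, while its 4 entries summed to 10.3 and 10.6. In TAM + TPL cells *CDKN1A* (162 ± 26.8) was again first, *TP53I3* had come down to 31.0 ± 0.834 and *GADD45A* stood at 20.2 ± 1.65. *BTG2* (11.3 ± 0.134) and *MDM4* (11.2 ± 0.431) were then at one level, with overlapping libraries.

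*TP63*, which encodes the p53 relative that maintains basal epithelium, fell in NT cells from 13.2 and 23.6 to 0.64 and 0.28 FPKM (−5.31 ± 0.44, adjusted p = 0.000439). In TAM cells it fell from 24.2 and 23.0 to 0.89 and 0.58 (−5.04 ± 0.42, adjusted p = 0.000491). Both were strict calls. *TP73* was at or below 0.6 FPKM in every library.

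Around the members, 55 further genes of the pathway were taken in 6 lists, and 54 of them were tested. With TPL in NT cells 15 of the 54 rose and 13 fell at an adjusted p of 0.05, where 17.2% of all genes rose and 19.8% fell. In TAM cells 11 rose and 16 fell, where 14.3% of all genes rose and 18.6% fell. By the strict rule 5 and 4 were called in the 2 cell states, beside 3.93% and 2.88% of all genes. Fits with any 1 library left out mostly called fewer, of these and of all genes. The median log2 fold changes were −0.19 in both cell states, beside 0.09 and 0.05 over all genes. The lists are described in turn, their counts are to be read against those shares, and no test compared the lists.

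Of 12 kinases and regulators of p53, 0 rose and 4 fell in NT cells (17.2% and 19.8% of all genes), and 1 rose and 5 fell in TAM cells (14.3% and 18.6% of all genes). The others did not pass the test. The acetyltransferase gene *KAT5* fell by 1.99 ± 0.27 in NT (adjusted p = 0.00214) and by 2.87 ± 0.29 in TAM cells (adjusted p = 0.000846). *COP1*, a ubiquitin ligase that acts on p53, fell by 1.45 ± 0.18 and 1.54 ± 0.18 (adjusted p = 0.00156 and 0.0014). *TP53BP1*, a p53-binding repair factor, fell by 1.21 ± 0.24 and 0.84 ± 0.24 (adjusted p = 0.00899 and 0.035). In TAM cells the checkpoint kinase gene *CHEK1* fell by 0.58 ± 0.16 (adjusted p = 0.0306) while *ATM* rose by 0.81 ± 0.20 (adjusted p = 0.0198).

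Other arrest targets went both ways, with 2 higher and 3 lower of 7 tested in NT cells and 2 of each in TAM cells. *GDF15*, a secreted stress cytokine, rose in NT cells from 1.02 and 1.23 to 20.2 and 11.6 FPKM (3.79 ± 0.39, adjusted p = 0.000811). In TAM cells it started at 6.04 and 4.47 and rose to 14.9 and 10.96 (1.25 ± 0.34, adjusted p = 0.0298), and it was higher in TAM than in NT cells by 2.23 ± 0.38 (adjusted p = 0.0172). The TPL effects on *GDF15* differed by −2.54 ± 0.50 (adjusted p = 0.156 in edgeR, and 0.044 with the entries of each symbol summed). The kinase gene *PLK3* rose by 1.32 ± 0.21 and 1.05 ± 0.21 (adjusted p = 0.0038 and 0.0105). *SFN*, which encodes 14-3-3σ, fell in NT cells from 2440 and 1880 to 895 and 836 FPKM (adjusted p = 0.00274) and from 896 and 810 to 468 and 355 in TAM cells (adjusted p = 0.00611). The RNA-binding protein gene *ZMAT3* fell by 0.67 ± 0.17 and 0.90 ± 0.17 (adjusted p = 0.0216 and 0.00876). *PLK2* fell by 0.76 ± 0.17 in NT cells (adjusted p = 0.0157), with −0.49 ± 0.17 in TAM cells (adjusted p = 0.068).

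Among 12 other apoptosis targets, 5 rose and 2 fell in NT cells and 3 rose and 2 fell in TAM cells. *PMAIP1*, which encodes the BH3-only protein NOXA, rose in NT cells from 7.69 and 7.77 to 55.0 and 60.4 FPKM (2.89 ± 0.15, adjusted p = 0.000192). In TAM cells it rose from 20.3 and 22.2 to 57.6 and 61.6 (1.44 ± 0.14, adjusted p = 0.000736), so that the TPL libraries of both states reached one level from different starts. It was higher in TAM than in NT cells without TPL (1.47 ± 0.14, adjusted p = 0.00187), and the TPL effects differed by −1.45 ± 0.20 (adjusted p = 0.0589, and 0.0188 with the entries of each symbol summed). *PHLDA3*, an inhibitor of AKT, fell by 2.27 ± 0.15 and 1.67 ± 0.15 (adjusted p = 0.000246 and 0.000613). The nuclease gene *AEN* fell by 2.03 ± 0.21 and 1.18 ± 0.21 (adjusted p = 0.000913 and 0.00641). *PIDD1*, which encodes a death-domain scaffold, rose by 1.49 ± 0.33 in NT cells (adjusted p = 0.0132), with 0.92 ± 0.33 in TAM cells (adjusted p = 0.0714). *TP53AIP1* passed the test in both states (adjusted p = 0.035 and 0.0169) at no more than 43 counts in any library.

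Of 10 metabolism and repair targets, 4 rose and 2 fell in NT cells (17.2% and 19.8% of all genes), and 5 rose and 2 fell in TAM cells (14.3% and 18.6% of all genes). *POLH*, the translesion polymerase gene, rose by 1.72 ± 0.22 and 1.51 ± 0.22 (adjusted p = 0.00176 and 0.00313). *DDB2*, a damage sensor of nucleotide excision repair, rose by 1.26 ± 0.17 and 0.89 ± 0.17 (adjusted p = 0.00189 and 0.00845). *SESN2*, the paralogue of *SESN1*, rose by 1.07 ± 0.18 and 1.14 ± 0.18 (adjusted p = 0.00516 and 0.00427), and the mitochondrial reductase gene *FDXR* by 1.33 ± 0.22 and 1.05 ± 0.22 (adjusted p = 0.00439 and 0.0125). *SCO2*, a factor of cytochrome c oxidase assembly, fell by 1.5 ± 0.22 and 1.55 ± 0.23 (adjusted p = 0.00322 and 0.00325).

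Genes that p21 is known to hold down through the DREAM complex, all mitotic or cell-cycle genes, differed between TAM and NT cells. Of 10 tested, 8 were higher in TAM than in NT cells and none lower, where 3.46% of all genes were higher, and the median log2 fold change was 1.89 beside −0.03 over all genes. With TPL, 4 rose and 1 fell in NT cells, and 0 rose and 4 fell in TAM cells. *CDC20*, an activator of the anaphase-promoting complex, was at 12.9 and 12.8 FPKM in NT cells, with TPL at 8.77 and 6.24. TAM cells had 39.3 and 42.5, with TPL 11.7 and 14.5. The mitotic kinase gene *PLK1* fell by 1.52 ± 0.19 with TPL in TAM cells (adjusted p = 0.00184), against a log2 fold change of 0.57 ± 0.20 in NT cells (adjusted p = 0.0573). *KIF23* and *CCNB1* also fell in TAM cells, by 1.61 ± 0.23 and 1.2 ± 0.23 (adjusted p = 0.00286 and 0.00883). *BIRC5*, which encodes survivin, rose in NT cells (1.76 ± 0.30, adjusted p = 0.00498). For 0 of these 10 genes did the difference between the TPL effects pass the test, while 8 of 10 had an unadjusted edgeR p under 0.05, beside 10.6% of all genes. With the entries of each symbol summed, *PLK1* passed in that comparison (adjusted p = 0.00814). Over all the pathway lists, and not this list alone, 4 of the 54 genes passed an adjusted p of 0.05 in that comparison in DESeq2. Of all genes, 530 of 16948 did.

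**Figure D4:**
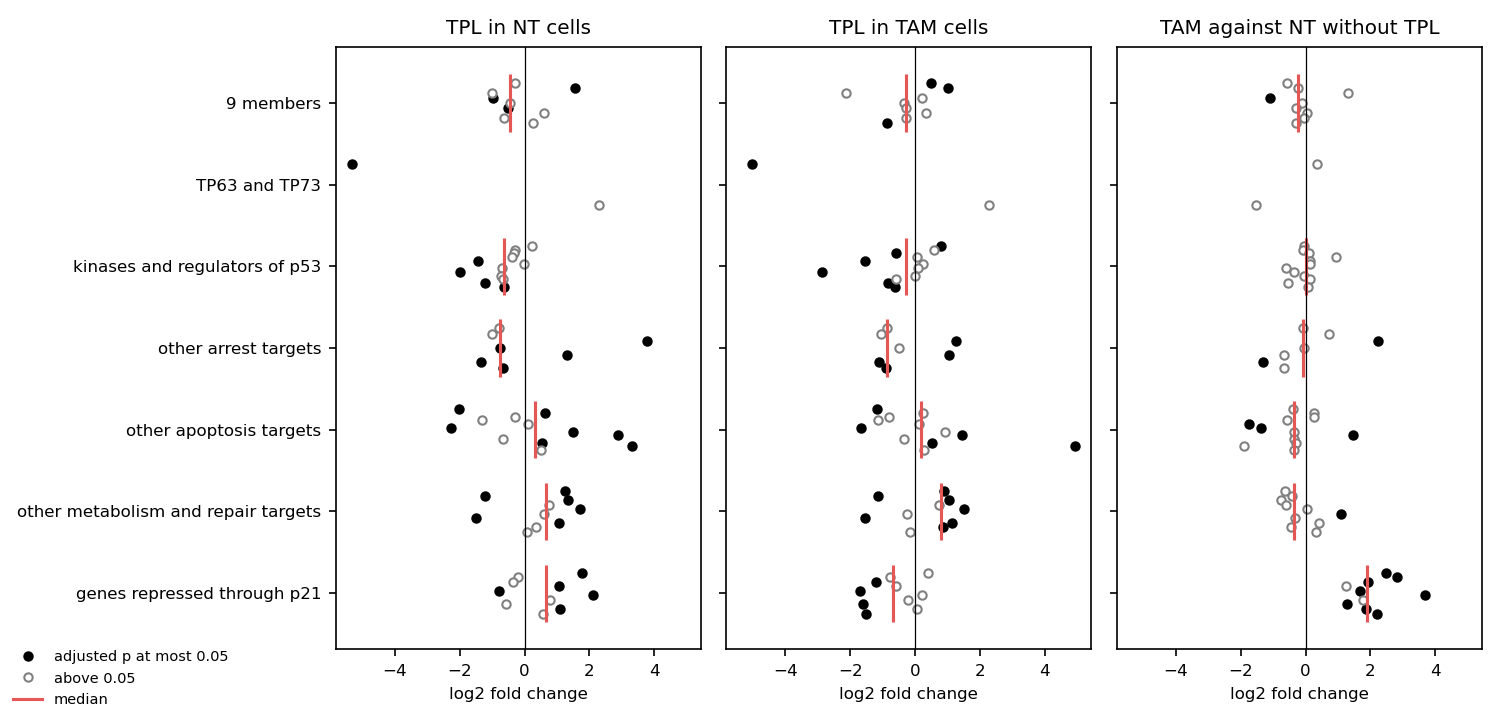
Log2 fold change (x axis) of the 9 members, of TP63 and TP73 and of the tested genes of the other pathway lists with TPL in NT cells, with TPL in TAM cells, and in TAM against NT cells without TPL; each point is a gene, filled where its adjusted edgeR p is at most 0.05, and each red line a list's median. TP63 lies near −5 in both TPL panels, and the genes repressed through p21 lie to the right in the last panel, with a median of 1.89.

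The genes whose pattern over the 8 libraries was most like that of a member were taken outside these lists, by Pearson's r of log2(FPKM + 1), as a description. *CDKN1A* was matched by *BPGM*, *RASIP1* and *MXRA8* (r = 0.99 each), and *BPGM* ran from 7.48 FPKM in TAM replicate 2 to 22.5 in NT + TPL replicate 1. *GADD45A* was matched by *CTSC* and *EPGN* (0.98) and *ZNG1A* (0.97). *BTG2* was nearest to *NOTCH1*, *ILRUN-AS1* and *ZNF708* (0.95), *MDM2* to *PDZD8* (0.99), *SVIL-AS1* and *AFAP1* (0.98), and *MDM4* to *PUS1* and *FBLIM1* (0.98) and *SPRYD7* (0.97). *PPM1D* was nearest to *FAM220A*, *NDUFB4* and *MAP2K3* (0.98), and *SESN1* to *STAM2* and *ZNF346* (0.95). The *MAP2K3* row read 0 FPKM in both NT libraries and in TAM replicate 1, and 5.69 in TAM + TPL replicate 2. Whether its reads were divided among entries was not tested. *TP53I3* was matched by *MPST* and *NNMT* (0.98) and *NMRAL1* (0.97), all lowest in the TAM + TPL libraries. The divided *FAS* row was nearest to *FBXO8* (0.94), *PTPN2* and *UPRT* (0.93), of which *PTPN2* and *UPRT* were also listed at 0 in NT replicate 1.

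RNAPII was read at the members' starts from the peak lists, which hold 11222 peaks for NT, 8653 for NT + TPL, 11056 for TAM and 8464 for TAM + TPL. Each list gives starts and ends without height or score, and is named for peaks at a TSS. A peak away from any TSS may therefore be missing from it. The peak names carry a cutoff of 0.02 in 3 lists and a q of 0.1 in the TAM list, and name 1 replicate each, so presence and width cannot be compared with the TAM list on one scale and there is no replicate check. The main TSS was that of the Ensembl canonical transcript or, for *FAS*, of the longest coding one. It lay in a peak for 9 of 9 members in the NT, NT + TPL and TAM lists, against 63.7%, 50.8% and 56.1% of the tested genes. In the TAM + TPL list it did for 7 of 9, against 49.9%.

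*TP53I3* and *SESN1* were the exceptions in the TAM + TPL list. The *TP53I3* start lay in peaks of 1191 bases in NT (chr2:24306726-24307916), 586 in NT + TPL and 1421 in TAM, and no TAM + TPL peak lay within 1000 bases of it, in the condition where its RNA was also lowest. Among all genes, 19% of the starts in a TAM peak were in no TAM + TPL peak, and 23.1% of those in an NT peak were in no NT + TPL peak. For *SESN1* the TAM + TPL peak began 120 bases downstream of the start, and a further annotated start inside the gene lay in a peak in all 4 lists.

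The peak at *CDKN1A* reached from 191 bases upstream to 2028 downstream of the TSS in NT and ended at 381 downstream in NT + TPL, with lengths of 2220 and 725 bases. In TAM and TAM + TPL it was 2547 and 2575 bases long. The upstream p53 element of *CDKN1A* was outside the peaks in all 4 lists, as was that of *BTG2*. Because the lists are named for peaks at a TSS, they cannot show whether RNAPII had a separate peak at these elements. The intronic *FAS* element was inside a peak in all 4 lists, and that of *GADD45A* in all but the TAM list, where the peak was 433 bases long. At *MDM2*, 1 peak of 1586 bases in NT was divided into 533 and 1075 bases in NT + TPL. A TAM peak of 1522 bases was divided into 400 and 740 in TAM + TPL, across lists of unlike threshold. The downstream piece held 6 further annotated starts of *MDM2* in each list. The *BTG2*, *MDM4* and *PPM1D* peaks covered the start in all 4 lists with lengths between 409 and 813 bases.

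**Figure D5:**
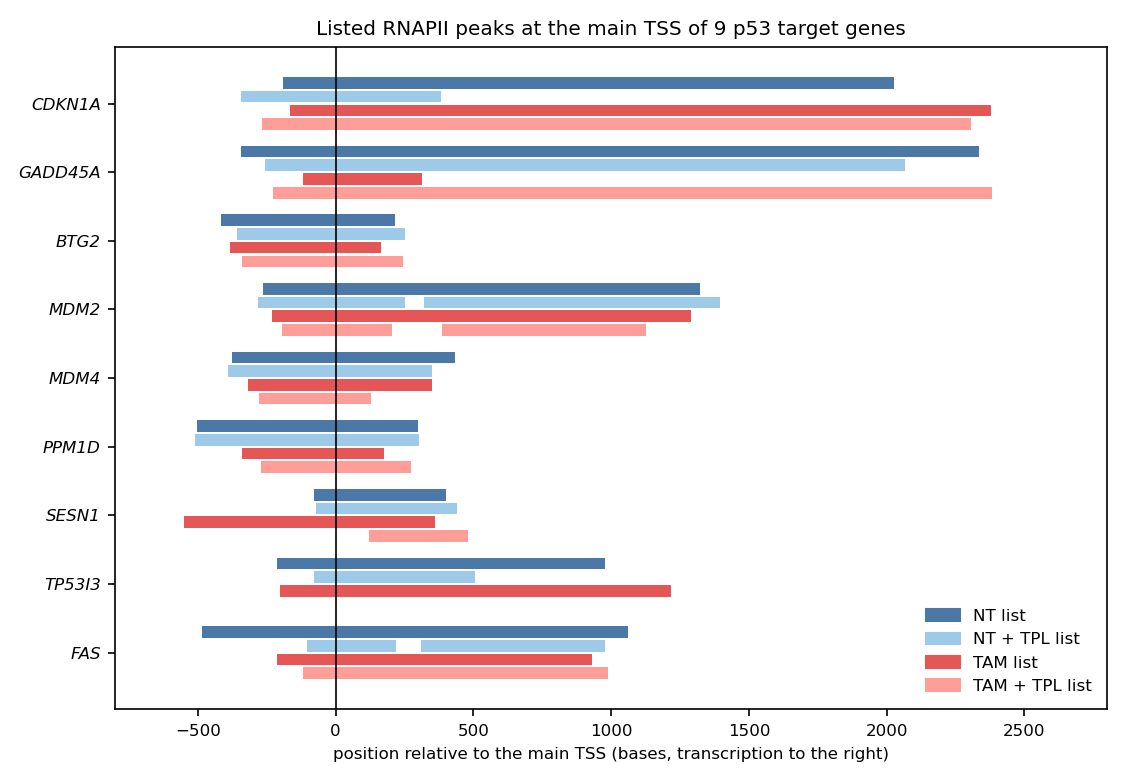
Listed RNAPII peaks (bars) at the main TSS of the 9 members in the NT, NT + TPL, TAM and TAM + TPL lists; the x axis gives bases from the TSS, with transcription to the right, and bars carry no height. TP53I3 has no bar in the TAM + TPL list, and the CDKN1A bar ends 381 bases downstream in NT + TPL and 2028 bases downstream in NT.

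The 250 bases upstream of the start are shown for *CDKN1A*, *BTG2* and *TP53I3*, the member that rose in both states and the pair whose TPL libraries lay on opposite sides of their controls, from RefSeq (GRCh38.p14) and placed on GRCh37 by an exact match. Of the 9 members 8 had an entry in that table. Capitals mark GGGCGG (a GC box) and CCAAT on either strand, and TATAAA was also searched. In the 300 bases from 250 upstream to 50 downstream, these occur in 44.6%, 35.7% and 12% of 27305 promoters, 1 per gene.
CDKN1A, chr6:36646241-36646490, plus strand: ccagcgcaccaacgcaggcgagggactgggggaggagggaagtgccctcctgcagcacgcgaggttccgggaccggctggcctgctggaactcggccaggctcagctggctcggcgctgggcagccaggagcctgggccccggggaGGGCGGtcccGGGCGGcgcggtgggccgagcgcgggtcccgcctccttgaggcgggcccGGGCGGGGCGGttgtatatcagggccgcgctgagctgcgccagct
BTG2, chr1:203274397-203274646, plus strand: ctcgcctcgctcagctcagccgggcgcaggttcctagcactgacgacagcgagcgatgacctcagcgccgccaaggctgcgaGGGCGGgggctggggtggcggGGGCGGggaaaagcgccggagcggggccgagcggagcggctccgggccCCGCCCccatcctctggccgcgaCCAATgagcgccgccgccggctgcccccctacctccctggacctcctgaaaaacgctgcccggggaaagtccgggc
TP53I3, chr2:24307705-24307954, minus strand: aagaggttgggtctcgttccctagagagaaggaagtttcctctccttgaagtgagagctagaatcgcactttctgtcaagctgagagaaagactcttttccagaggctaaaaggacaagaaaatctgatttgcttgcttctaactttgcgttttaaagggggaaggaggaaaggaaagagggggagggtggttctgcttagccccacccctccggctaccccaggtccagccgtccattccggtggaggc

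*CDKN1A* held 4 GC boxes, the last 2 of them overlapping, *BTG2* held 3 and a CCAAT, and *TP53I3* held none of the 3 motifs. None of the 3 promoters held TATAAA. Over the 300 bases the GC content was 74.3% for *CDKN1A*, 73.3% for *BTG2* and 54.3% for *TP53I3*, beside a median of 58.3% over all promoters.

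Exons of some members overlap annotated genes on the opposite strand: *CDKN1A* shares 146 bases with *DINOL*, *MDM2* 133 with *CPM*, *TP53I3* 80 with *FAM228B* and *FAS* 380 with *ACTA2*. Annotated genes without a symbol also overlap exons of *MDM2*, *SESN1* and *FAS*. The sources used here do not say that the libraries kept strand, so reads from these stretches cannot be told apart.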

How the data were processed

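RNA-Seq was made from 8 cultures in 4 groups, and RNAPII ChIP-Seq from 8 samples with 2 inputs. The expected counts (not normalized) and FPKM were made by the authors with Bowtie2 and RSEM from poly-A RNA, as deposited per library. The peak positions were deposited as 4 BED lists; per the methods, reads were aligned to hg19 with SOAP2 and peaks called over input with MACS 1.4.2. The lists give coordinates only; their starts are counted from 0, so 1 was added to give browser positions. Unlisted genes were taken as 0. Of 23604 genes, 21077 were matched to symbols by gene ID, 2407 by RefSeq accession and 120 were not.

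After rounding, the expected counts went into edgeR 4.0.16 (R 4.3.3; filterByExpr, TMM, quasi-likelihood test, 4 groups in 1 fit, 16948 genes; common dispersion 0.099). A strict call combined a log2 fold change of 1.2 or more in size with an adjusted p of 0.001 or less. The fit was tested on simulated data. TSSs came from the GENCODE annotation mapped to GRCh37, and promoters from RefSeq. Depth was 7461309 to 8349448 counts per library, with 2 replicates per group. The depth behind the peaks is unknown.

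Alternatives were DESeq2 1.42.0, limma 3.58.1 on log2 FPKM with pseudocounts of 1 and 0.1, other scalings and filters, a replicate block, summed entries and leaving out each library. The members and lists were chosen with earlier results of these data known. Named were all members, *TP63* and *TP73*, from every other list up to 5 genes with the smallest p among those at an adjusted p of at most 0.05 with TPL, and the 3 genes nearest in pattern to each member among those with a mean of at least 1 FPKM. Results for 2 genes that this rule names are not reported here. The ChIP-Seq signal was not analysed here.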

Additional observations from a re-analysis of the deposited data

Results flagged for a closer look

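The TPL libraries of *BTG2* lay below their controls in NT cells and above them in TAM cells, with log2 fold changes of −0.29 and 0.48 that differ by 0.78 (adjusted p = 0.274 in edgeR). *TP53I3* showed the reverse, with 0.26 in NT and −0.85 in TAM cells and a difference of −1.11 (adjusted p = 0.201 in edgeR). Of the pathway genes, 3 had TPL libraries on opposite sides of their controls. They were *CHEK2*, a checkpoint kinase gene (−0.38 and 0.06, difference 0.43, adjusted p = 0.746 in edgeR), *CCNB2*, a mitotic cyclin gene (1.05 and −0.60, difference −1.65, adjusted p = 0.243 in edgeR), and *PLK1* (0.57 and −1.52, difference −2.09, adjusted p = 0.0523 in edgeR). None of these 5 differences passed the adjusted test in edgeR over single entries. How many of all genes lay on opposite sides in this way was not counted. Over all genes, the NT + TPL and NT libraries did not overlap for 69.1%. The TAM + TPL and TAM libraries did not for 74.7%. The opposite sides alone therefore say nothing particular of these genes. With the entries of each symbol summed the *PLK1* difference passed an adjusted p of 0.05 in edgeR (0.00814), and DESeq2 passed the *TP53I3* difference (0.00149). *CHEK2* and *CCNB2* are named because of these opposite directions, after their values were seen.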

How the results depend on the processing

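For single members, 690 of the alternative values kept their direction and their side of the strict threshold, 21 passed it only in the alternative (*CDKN1A* or *FAS*), and 10 changed sign. The sign changes were *TP53I3* with TPL in NT cells and *PPM1D* in TAM against NT cells under *GAPDH* scaling (−0.08 and −0.4), and the divided *FAS* row in NT cells under limma with pseudocounts of 1 and 0.1 (0.02 and 1.25). With a library left out, the *FAS* row ran from −2.02 to 9.3, the latter without NT replicate 2 and so against the library that reads 0. In TAM against NT cells *MDM2* ran from −0.31 to 0.11 (above 0 without NT replicate 2), *PPM1D* from −0.11 (without TAM replicate 2) to 0.22, and *SESN1* from −0.16 to 0.06 (above 0 without NT replicate 2, and 0.03 without TAM replicate 1). The difference between the TPL effects for *MDM2* ran from −0.1 (without NT replicate 2) to 0.32. None of these 10 passed an adjusted p of 0.05 and the cause was not tested. *GAPDH* scaling moved the all-gene median (log2) from 0.09 to −0.26 with TPL in NT cells, from 0.05 to −0.07 in TAM cells and from −0.03 to −0.5 in TAM against NT cells, and upper quartile scaling moved the TPL medians to 0.31 and 0.29. *TP53I3* with TPL in NT cells, at −0.08, stayed above the all-gene median of −0.26 under *GAPDH* scaling.

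Members called by the strict rule with TPL in NT cells were 0, but 1 (*CDKN1A*) under DESeq2, upper quartile scaling, no filter, at least 10 counts in every library and limma on log2(FPKM + 1), 2 with entries summed, and 3 at an adjusted p of 0.05 with no fold limit. In TAM cells they were 0, but 1 with entries summed (*FAS*) and 3 at the wider rule, and in TAM against NT cells 0, but 1 at the wider rule. In NT cells upper quartile scaling called 570 of 16948 genes, no filter 913 of 23529 and limma on log2(FPKM + 1) 870 of 16948. A fit with a library left out keeps 1 library in a group. Such fits mostly called fewer genes of any kind by the strict rule, so their counts are no check on these genes. For the pathway genes, parentheses give the count of all genes called in the same setting, of 16948 where no total is named. Pathway genes called in NT cells numbered 5 (666). They numbered 16 under DESeq2 (2554), 14 with at least 10 counts (1435 of 12502), 14 with entries summed (1999 of 15753) and 28 at the wider rule (6274). In TAM cells they numbered 4 (488), against 11 under DESeq2 (2278), 11 with at least 10 counts (1249 of 12502) and 10 with entries summed (1770 of 15753). There were 2 under upper quartile scaling (406) and 27 at the wider rule (5590). In TAM against NT cells they numbered 0 (111), against 14 under DESeq2 (745), 8 with at least 10 counts (323 of 12502) and 11 with entries summed (463 of 15753). There was 1 under *GAPDH* scaling (109) and 1 with no filter (170 of 23529). Limma gave 2 with pseudocounts of 1 (170) and 0.1 (138), and the wider rule 14 (1160). The difference between the TPL effects called 0 pathway genes (0), and 2 under DESeq2 (145). The wider rule called 24 to 37 pathway genes in NT cells under the settings that kept every library, beside 5397 to 7502 of all genes. In TAM cells it called 23 to 33, beside 4675 to 6917 of all genes. With a library left out it mostly called fewer, of pathway genes and of all genes.

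The labels number replicates 1 and 2 in every group without saying that a number marks a shared day or batch, and replicate differences correlated across genes between −0.136 and 0.05, so the numbers were not taken as pairs. With a replicate block the strict rule called 0 of 16948 genes in NT cells and 0 in TAM cells. Its count of 0 pathway genes in both therefore says nothing particular of them. At an adjusted p of 0.05 there were 24 and 23 pathway genes, beside 5397 and 4675 of all genes. *BTG2* in TAM cells had an adjusted p of 0.0647 in edgeR with the block. The crossed pairing, chosen after seeing the data, called 1 pathway gene and 0 members in NT cells, beside 98 of 16948 genes. Peak counts over the members were within 1.5 times under any annotated TSS or a peak within 1000 bases.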
